A study of Rattus norvegicus with 6 samples.

Results

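The genes described here are 10 markers of disease-associated microglia, Clec7a, Itgax, Apoe, Lpl, Spp1, Cst7, Gpnmb, Trem2, Tyrobp and Lgals3, taken by name from the 30957 genes of the deposited table, in which each name had a single row. They were compared between spinal cords of bone cancer pain (BCP) rats and sham-operated rats. The members were chosen by name with their counts in these same groups already known, and the sham and BCP counts that chose them are given as a description. No p-value is given for a member, and calls of members under other settings, listed near the end, are descriptions too. The 3 BCP libraries came from adult female Wistar rats whose left tibia had received living Walker 256 cells, a rat mammary carcinoma line. The 3 sham libraries came from rats of the same strain that had received heat-killed Walker 256 cells, so both groups share the puncture of the bone and the cell material. On day 14 the lumbar cord on the side of the injected bone was taken without its meninges, and no microglia were isolated. All cell types of the tissue therefore contributed RNA, and more cells of a type cannot be told apart from more RNA per cell.

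Disease-associated microglia are a state that microglia enter around amyloid plaques, dying neurons and damaged myelin. In that state the genes of resting microglia decline, while genes of phagocytosis, lysosomes and lipid handling are switched on. Recognition of lipids by the receptor Trem2, which signals through the adaptor Tyrobp, is needed for the full program in mouse models. Apoe is also made in quantity by astrocytes, Spp1 by motor neurons, Lpl by several neural cells and Tyrobp by NK cells, so in whole cord these genes do not belong to microglia alone.

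Of the 10 genes, 6 were over 2-fold higher in the BCP libraries and 4 were not. Clec7a, Itgax, Cst7, Gpnmb, Tyrobp and Lgals3 had log2 fold changes (log2FC) of BCP over sham from 1.69 to 6.77, and Trem2, Spp1, Apoe and Lpl from -0.56 to 0.52. Other genes are said to be called where they had an adjusted p-value under 0.05 in edgeR's quasi-likelihood test and a change of more than 2-fold. Over all 14908 tested genes, 6.35% were called up, 0.107% down and 6.45% in either direction, and since the same contrast chose the members, nothing is read from the count of 6 against these shares. The median log2FC was 1.95 for the members and -0.01 for all tested genes. The 3 BCP libraries lay above the 3 sham libraries for 6 members, as for 21.7% of all tested genes, and below them for 2 members, as for 19.8%. All 10 members passed the filter on low counts, but Clec7a, Itgax and Cst7 had fewer than 10 counts in each sham library and passed through the BCP libraries alone, so they had to differ.

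**Figure D1:**
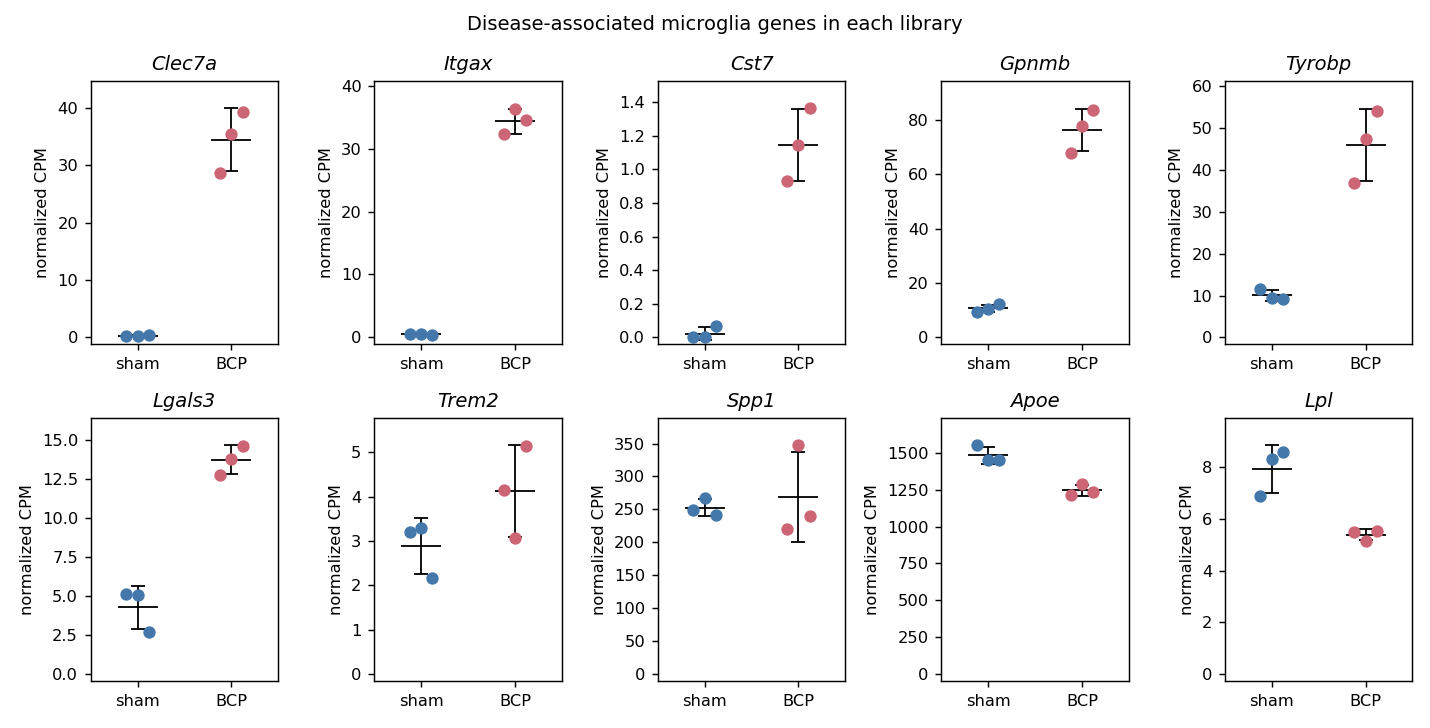
Normalized counts (CPM, library-scaled counts after TMM normalization, linear axis) of each member in the sham (blue) and BCP (red) libraries, ordered by log2FC, with the group mean and SD (n = 3). The points of the groups are apart for Clec7a to Lgals3, overlap for Trem2 and Spp1, and lie lower in BCP for Apoe and Lpl.

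The libraries held 11779485 to 15004290 counts on genes, and the 10 members took 0.163% to 0.189% of them. Apoe and Spp1 made up most of that share. Without both, the summed normalized count of the members was 35.5 to 37.4 CPM in the sham libraries and 189 to 238 CPM in the BCP libraries. Within each group the libraries varied beyond counting noise, and the sources used here do not say that each library came from a single rat, so the spread may be partly technical. The members lay on 7 chromosomes, with Itgax, Apoe and Tyrobp on chromosome 1 and Clec7a and Gpnmb on chromosome 4.

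The promoters of the members that moved and of some that did not are shown because they let the reader see what is shared upstream of genes with like or unlike levels. The RefSeq promoters of the rat assembly GRCr8 included 7 of the 10 members, without Lpl, Tyrobp and Lgals3, and the deposited tables use the older build Rnor_6.0. Each line gives the 250 bases before the annotated start, 5′ to 3′ on the strand of the gene, and capitals mark matches on either strand to GAGGAA (the core bound by PU.1), CACGTG (an E-box bound by MITF and related factors) and TGACTCA (an AP-1 site).
Clec7a: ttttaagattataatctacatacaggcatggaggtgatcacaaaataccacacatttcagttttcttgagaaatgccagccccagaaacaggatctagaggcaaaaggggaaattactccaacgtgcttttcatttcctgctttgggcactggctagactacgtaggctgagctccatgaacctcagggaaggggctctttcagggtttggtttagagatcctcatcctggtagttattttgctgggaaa
Itgax: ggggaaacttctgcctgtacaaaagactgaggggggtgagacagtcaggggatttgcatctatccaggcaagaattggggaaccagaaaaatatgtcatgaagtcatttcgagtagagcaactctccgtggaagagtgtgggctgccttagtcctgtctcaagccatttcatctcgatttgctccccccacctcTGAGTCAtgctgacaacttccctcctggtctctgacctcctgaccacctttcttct
Cst7: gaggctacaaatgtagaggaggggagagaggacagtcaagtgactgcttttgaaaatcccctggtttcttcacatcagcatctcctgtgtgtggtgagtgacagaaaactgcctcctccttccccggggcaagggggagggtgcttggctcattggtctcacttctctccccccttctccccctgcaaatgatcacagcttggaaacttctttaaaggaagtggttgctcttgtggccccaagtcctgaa
Gpnmb: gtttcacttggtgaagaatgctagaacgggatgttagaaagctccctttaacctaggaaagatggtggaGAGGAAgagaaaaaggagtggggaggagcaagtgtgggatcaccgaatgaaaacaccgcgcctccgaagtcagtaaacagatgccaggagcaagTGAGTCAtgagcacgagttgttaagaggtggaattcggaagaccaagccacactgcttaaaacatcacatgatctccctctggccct
Trem2: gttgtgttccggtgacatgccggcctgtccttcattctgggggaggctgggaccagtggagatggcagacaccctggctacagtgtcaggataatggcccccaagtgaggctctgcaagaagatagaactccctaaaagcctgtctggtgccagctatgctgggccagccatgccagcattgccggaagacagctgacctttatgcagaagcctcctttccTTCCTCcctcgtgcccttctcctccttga
Spp1: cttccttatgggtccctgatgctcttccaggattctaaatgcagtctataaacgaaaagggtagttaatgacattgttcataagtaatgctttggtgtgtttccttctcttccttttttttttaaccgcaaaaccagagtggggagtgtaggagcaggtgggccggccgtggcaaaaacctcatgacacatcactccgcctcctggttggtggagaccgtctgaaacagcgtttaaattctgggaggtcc
The windows are chr4:164599828-164600077 (minus strand) for Clec7a, chr1:192149799-192150048 (plus strand) for Itgax, chr3:159857030-159857279 (plus strand) for Cst7, chr4:79340878-79341127 (plus strand) for Gpnmb, chr9:20151780-20152029 (minus strand) for Trem2 and chr14:5619805-5620054 (minus strand) for Spp1. Gpnmb held a GAGGAA match that starts 181 bases before the gene and an AP-1 match 87 bases before it. Itgax held an AP-1 match 56 bases before the start, and Trem2 a GAGGAA match 29 bases before it. Apoe, which has 3 annotated starts, held a GAGGAA match 108 bases before 1 of them. In all, 3 of the 7 members held GAGGAA, 2 held TGACTCA and 0 held CACGTG. Only these exact strings were searched, so other forms of the sites bound by these factors were not counted. Among all 33469 promoters of the table the shares were 23.3%, 4.05% and 5.59%. These are shares of promoters, whereas the members were counted as genes and a match at any of the 3 Apoe starts counted, so the units differ. The TGACTCA matches lay in Itgax and Gpnmb, the GAGGAA matches in Gpnmb, Trem2 and Apoe, and Clec7a, Cst7 and Spp1 held no match.

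Clec7a on chromosome 4 (163216163 to 163227334, Rnor_6.0) encodes Dectin-1, a receptor for fungal beta-glucan that signals through the kinase Syk. It had 4, 4 and 5 counts in sham libraries 1, 2 and 3 and 338, 496 and 519 counts in BCP libraries 1, 2 and 3. Every BCP library thus held many times the counts of any sham library. The normalized count was 0.307 ± 0.0293 CPM in sham and 34.4 ± 5.43 CPM in BCP (SD, n = 3), a log2FC of 6.77 with a standard error (SE) of 0.21.

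Itgax on chromosome 1 (199555722 to 199576932) encodes CD11c, the alpha chain of an integrin of dendritic cells and activated microglia. Its counts were 7, 8 and 6 in sham and 382, 508 and 456 in BCP. The normalized counts were 0.499 ± 0.0823 and 34.4 ± 2.01 CPM, a log2FC of 6.09 (SE 0.17). The groups were far apart, and the BCP libraries were close to each other, with a coefficient of variation (CV) of 5.84% where counting noise alone gives 4.72%. The row of Itgam, the integrin alpha chain encoded beside it, spans the whole of Itgax in the deposited table (199495298 to 199623960), and the sources do not say how reads in shared bases were counted.

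Trem2 on chromosome 9 (14611561 to 14618013) encodes the lipid receptor at the head of the program. Its counts were 42, 47 and 32 in sham and 49, 43 and 68 in BCP. The highest sham library, with 3.28 CPM, stood above BCP library 2, with 3.07 CPM, and the groups overlapped. The means were 2.88 ± 0.625 and 4.12 ± 1.04 CPM, a log2FC of 0.52 (SE 0.25). Counting noise alone gives a CV of 15.7% in sham and 13.7% in BCP at these counts, against observed values of 21.7% and 25.2%, so the libraries varied beyond counting noise.

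Tyrobp on chromosome 1 (88875375 to 88879303) encodes DAP12, the adaptor that carries the signal of Trem2 and of many other receptors of myeloid and NK cells. It had 152, 135 and 135 counts in sham and 435, 662 and 713 counts in BCP. The lowest BCP library lay above every sham library. In CPM the means were 10.1 ± 1.35 and 46.0 ± 8.68, a log2FC of 2.20 (SE 0.15). The ratio of Tyrobp to Trem2 in FPKM, the unit scaled to gene length and library size, was 6.94, 5.51 and 8.09 in sham and 17.0, 29.5 and 20.1 in BCP. The FPKM of Tyrobp was thus several times that of Trem2 in either group, and more so in BCP. These are RNA levels of whole cord, in which Tyrobp is also made by other cells, and Trem2 had only 32 to 68 counts per library.

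Cst7 on chromosome 3 (146365092 to 146373365) encodes cystatin F, an inhibitor of lysosomal cysteine proteases in leukocytes. It was the rarest member, with 0, 0 and 1 counts in sham and 11, 16 and 18 in BCP. From the summed counts of 45 and 1 the ratio of BCP to sham was 48.7, with an exact 95% interval of 8.31 to 1970 that covers counting error only. All BCP libraries held more counts than any sham library, as had to be for a gene that passed the filter through BCP alone, and the fitted log2FC of 5.14 (SE 0.77) depends on the prior count of the fit. Gpnmb on chromosome 4 (78694447 to 78715683) encodes a transmembrane glycoprotein of lysosome-rich phagocytes. Its counts were 122, 150 and 180 in sham and 805, 1087 and 1104 in BCP, and the means were 10.7 ± 1.44 and 76.5 ± 7.84 CPM. The groups did not overlap, and the log2FC of 2.84 had the smallest SE, 0.10, among the 6 members over 2-fold higher.

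Lgals3 on chromosome 15 (24141651 to 24165537) encodes galectin-3, a lectin that binds damaged lysosomes and cell surface sugars. It had 67, 72 and 40 counts in sham and 151, 193 and 193 in BCP. Sham library 3 was low, and its CV of 31.9% in sham exceeded the 12.9% that counting gives, yet all BCP libraries lay above all sham libraries. The means were 4.28 ± 1.37 and 13.7 ± 0.926 CPM, a log2FC of 1.69 (SE 0.19).

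Apoe on chromosome 1 (80612895 to 80617057) encodes apolipoprotein E, the main lipid carrier of the central nervous system. It was by far the most abundant member, with 20349, 20762 and 21520 counts in sham and 14390, 18034 and 16276 in BCP. After scaling to library size every BCP library was below every sham library, at 1217, 1289 and 1233 CPM against 1552, 1450 and 1454 CPM. The log2FC was -0.25 (SE 0.04), within the 2-fold threshold. Lpl on chromosome 16 (22537056 to 22561496) encodes lipoprotein lipase, which frees fatty acids from lipoproteins. Its counts were 90, 119 and 127 in sham and 65, 72 and 73 in BCP, a log2FC of -0.56 (SE 0.17). In CPM the means were 7.92 ± 0.924 and 5.39 ± 0.212, with every BCP library lower than any sham library.

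Spp1 on chromosome 14 (6673686 to 6679901) encodes osteopontin, a secreted protein that binds integrins and CD44. It had 3270, 3827 and 3578 counts in sham and 2605, 4863 and 3163 in BCP. BCP library 2 stood above all the others at 348 CPM, while BCP libraries 1 and 3, at 220 and 240 CPM, lay below all 3 sham libraries. The CV was 5.18% in sham and 25.5% in BCP, where counting alone gives 1.68%. The log2FC was 0.09 (SE 0.21) and turned to -0.13 without BCP library 2. Motor neurons are a known source of Spp1. The summed normalized counts of their markers were 373, 321 and 312 CPM in BCP libraries 1, 2 and 3 and 370 to 426 CPM in sham. The part of these cells in the level of Spp1 was not tested.

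**Figure D2:**
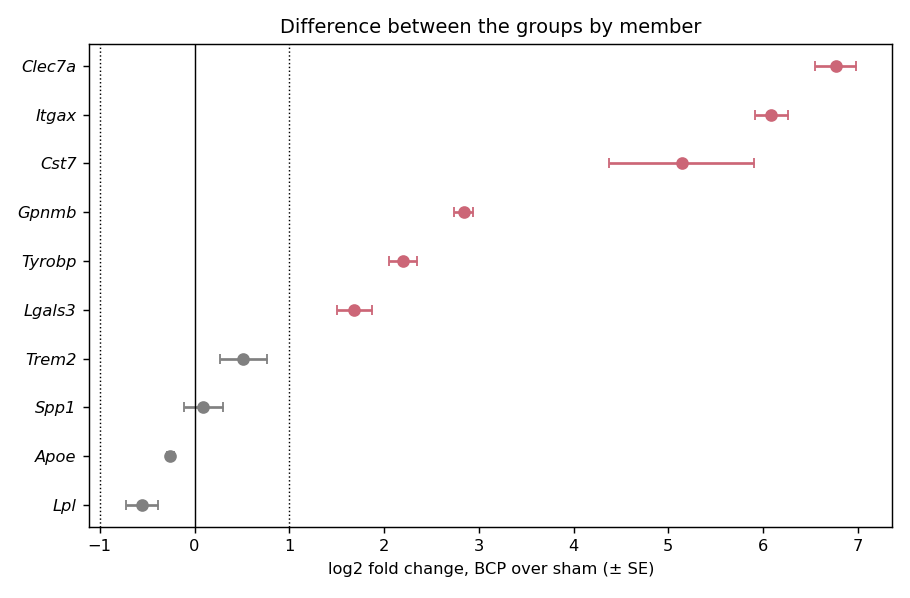
Log2FC of BCP over sham with its standard error for each member, from edgeR's fit over all tested genes. Red points are over 2-fold higher in BCP, gray points are not, and dotted lines mark 2-fold. Clec7a and Itgax lie beyond 6, and Apoe and Lpl lie below 0.

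Per length of gene, the order of the levels was the same for the top 4 members in both groups. Apoe led with 941 ± 33.0 FPKM in sham and 812 ± 28.7 FPKM in BCP, followed by Spp1 with 104 ± 5.59 and 114 ± 29.5 FPKM. Tyrobp followed with 16.4 ± 2.14 and 77.4 ± 15.1 FPKM and Gpnmb with 4.55 ± 0.624 and 33.6 ± 3.69 FPKM. In sham, Trem2, Lgals3 and Lpl came next, at 2.45, 2.26 and 2.13 FPKM, and neighbors in that order overlapped. Clec7a and Itgax, at 0.109 and 0.105 FPKM, also overlapped and were close to the bottom, above Cst7. In BCP, Clec7a ranked 5 with 12.5 ± 2.06 FPKM. Lgals3 and Itgax followed at 7.47 and 7.46 FPKM without a difference beyond their spread, and Trem2, Lpl and Cst7 were last at 3.61, 1.49 and 1.02 FPKM. Clec7a and Itgax thus went from far below Trem2 and Lpl to above both.

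Among the BCP libraries, library 3 was the highest for 7 members and library 2 for the other 3, while library 1 was the highest for 0 and the lowest for 8. In sham, libraries 1 and 2 were each the highest for 3 members and library 3 was the highest for 4 and the lowest for 5.

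Markers of other cells that moved with the members were also measured. Of 8 general microglia and macrophage markers such as Aif1, Itgam and the C1q genes, 7 were called up, and their summed level was 228 to 313 CPM in sham and 891 to 1110 CPM in BCP. Of 9 tested T and NK cell markers all were called up, from 4.65 to 7.05 CPM in sham to 55.2 to 67.1 CPM in BCP, and of 5 proliferation genes all were called up, from 12.9 to 37.6 to 114 to 192 CPM. Over all tested genes the share called up was 6.35%. Among the T and NK cell markers, Cd3e, Cd3g, Cd247, Cd8a and Klrd1 had only 1 to 3 counts over the sham libraries. These passed the filter through the BCP libraries alone and had to be higher, so the count of 9 is a description. The list of monocytes and border macrophages went from 18.5 to 19.9 CPM in sham to 95.7 to 131 CPM in BCP, but only Plac8 of its 5 tested genes was called. In the same list Ccr2, which marks blood monocytes, was at 0 in sham and at 0.0773 CPM in BCP. The dendritic cell list, of interest for Itgax, held 46.8 to 51.1 CPM in sham and 46.4 to 50.0 CPM in BCP, most of it Flt3. Of its 3 tested genes Clec10a was called up, and Xcr1, not tested, had 0 counts in each sham library and 5, 7 and 5 in BCP. Neutrophil markers reached 0.743 CPM at most in sham and 5.41 CPM in BCP. The part of these cells in the levels of the members was not tested.

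Markers of the cells that also make Apoe, Spp1 and Lpl followed another course. None of 8 astrocyte, 8 neuron, 4 motor neuron, 6 oligodendrocyte, 4 endothelial, 4 fibroblast and 4 Schwann cell genes tested was called. The summed astrocyte level was 6549 to 6779 CPM in sham and 7650 to 9721 CPM in BCP, where Aqp4 alone held 2415 CPM in BCP library 1 against 360 and 362 CPM in BCP libraries 2 and 3, and that of oligodendrocytes was 37060 to 42230 CPM and 26450 to 29630 CPM. With no threshold on the fold change, 12.1% of all tested genes were lower and 15.8% higher at an adjusted p-value under 0.05. By that rule all 6 tested oligodendrocyte genes were lower. So were the neuron genes Rbfox3, Slc32a1 and Tubb3, the motor neuron genes Slc5a7 and Prph and the astrocyte genes Slc1a2, S100b and Aldh1l1, while Gfap was higher. Adipocyte markers, which would accompany Lpl from fat, were under 1 CPM in sum in every library, with Lep at 0. Of the melanocyte markers, of interest for Gpnmb, Mlana and Tyrp1 were at 0 and the summed level was 6.57 to 9.69 CPM in sham and 6.50 to 8.12 CPM in BCP. The part of these cells was not tested.

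None of the homeostatic microglia genes was called down. Of 14 tested rows 4 were called up (28.6%) and 0 down, with a median log2FC of 0.54. Over all tested genes 6.35% were called up and only 0.107% down, so nothing is read from the count of 0 down. By edgeR's quasi-likelihood test the log2FC was 1.44 (SE 0.16, adjusted p = 0.00330) for Csf1r, the receptor that keeps microglia alive, and 1.42 (SE 0.09, adjusted p = 2.29e-10) for the fractalkine receptor Cx3cr1. P2ry13, a receptor for ADP, and Tgfbr1, a receptor for TGF-beta, were called up at 1.15 and 1.07. A second, far less abundant row of Tgfbr1, at 0.73, was not called. Sall1, a microglial transcription factor that other cord cells express too, and Cst3, an abundant cystatin, were not called, with log2FC of 0.43 and 0.08. The resting markers P2ry12, at 0.79, and Tmem119, at 0.19, were not called either. Siglech was listed at 0 in every library.

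Set against the mean log2 CPM of the homeostatic list in the same library, the difference between the groups was smaller for the higher members and more negative for Apoe and Lpl. This reference was 4.50 ± 0.15 in sham and 5.11 ± 0.12 in BCP (SD, n = 3), a difference of 0.61. The mean of the general microglia and macrophage markers differed by more, 2.13. Clec7a lay 5.64 below it in sham and 0.01 below it in BCP, and Itgax 5.14 below and 0.00 below. Gpnmb moved from 1.08 below to 1.14 above and Tyrobp from 1.16 below to 0.40 above. Trem2 stayed near 3 below, at -2.93 in sham and -3.05 in BCP, and Apoe came down from 6.03 to 5.17 above the reference. Against the general microglia and macrophage markers, a reference added after the data were seen whose own mean was 2.13 higher in BCP, Tyrobp hardly differed between groups (-1.15 ± 0.14 and -1.12 ± 0.16). Clec7a was then 4.10 and Itgax 3.61 higher in BCP, Trem2 was 1.65 lower and Lgals3 turned from higher to lower.

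**Figure D3:**
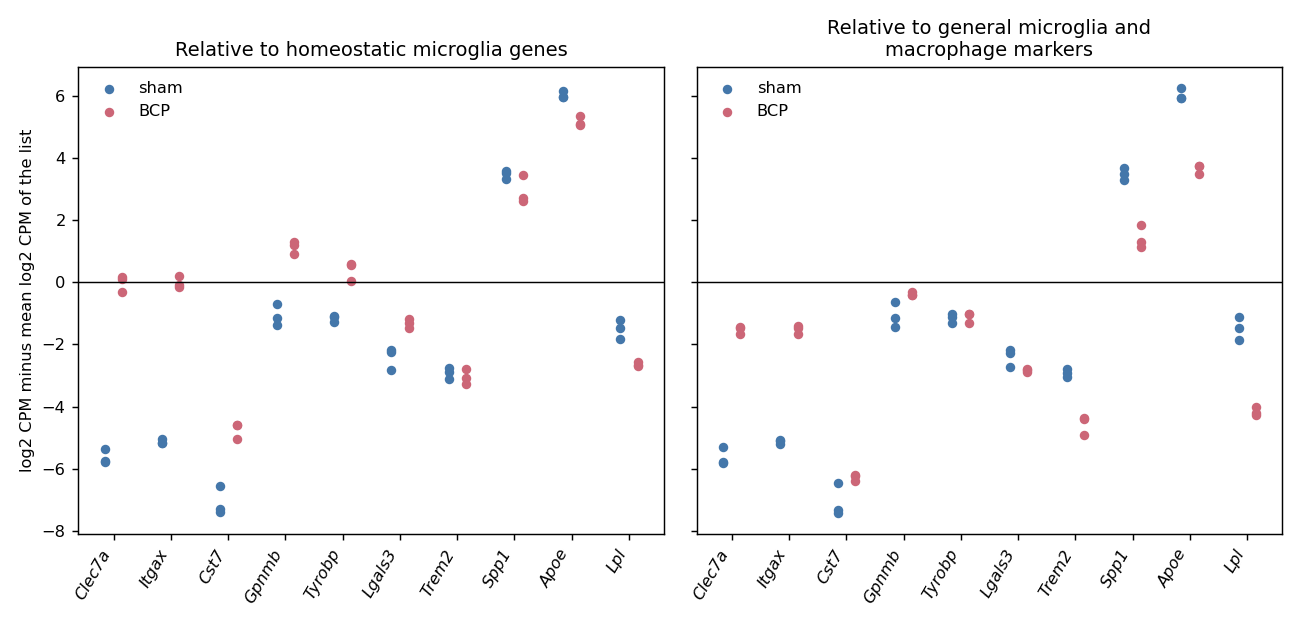
Log2 CPM of each member minus the mean log2 CPM of the homeostatic list (left) or of the general microglia and macrophage markers (right) in the same library, for sham (blue) and BCP (red), 3 libraries each. Clec7a and Itgax are higher in BCP in both panels, Tyrobp only in the left one, and Apoe, Lpl and Spp1 are lower in BCP or overlap.

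Other genes of the disease-associated state were called in part. Of 24 tested genes 10 were called up (41.7%, against 6.35% of all tested genes) and 0 down, with a median log2FC of 0.60. The chemokines Ccl3 and Ccl4 had 1 and 2 counts over the sham libraries and 118 and 147 over the BCP libraries, ratios of 128 (exact 95% interval 22.5 to 5090) and 79.5 (21.6 to 663). Both, and the chemokine Ccl6 with 6, 10 and 8 sham counts, passed the filter through the BCP libraries alone and had to be higher. With at least 10 counts in every library, 7 genes of the list were called up. Lyz2, a lysozyme, rose from 36.1 ± 4.21 to 532 ± 107 CPM (log2FC 3.88, adjusted p = 0.000444 by edgeR's quasi-likelihood test), and Cd68, a lysosomal membrane protein, from 2.10 ± 0.457 to 26.6 ± 1.86 CPM (log2FC 3.67, adjusted p = 1.12e-12). Ctsb, a lysosomal protease, missed the 2-fold threshold at 0.79, and the ferritin chain Fth1, among the most abundant of the list, had a log2FC of 0.03 and an adjusted p of 0.680.

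The signaling genes below Trem2, Tyrobp and Clec7a held the highest share of calls among the related lists. That share was still below the 87.5% of the general microglia and macrophage markers, whose median log2FC was 2.32. Of 19 tested rows 14 were called up (73.7%) and 0 down, with a median log2FC of 1.59, beside 0.52 for the receptor Trem2 itself. The largest log2FC belonged to the GTPase Rac2 (3.36), the kinase Btk (3.12), the phosphatase Ptpn6 and the exchange factor Vav1 (2.90), with adjusted p-values by edgeR's quasi-likelihood test of 1.01e-09, 9.46e-10, 3.26e-11 and 7.42e-10. Ptpn6 rose from 9.22 ± 1.09 to 73.6 ± 10.6 CPM. Syk, the kinase used by Tyrobp and Dectin-1, rose from 8.52 ± 1.08 to 21.5 ± 4.25 CPM (log2FC 1.34), and Card9, which acts next to Syk below Dectin-1, from 3.85 ± 0.848 to 11.1 ± 1.15 CPM (log2FC 1.53). The adaptor Grb2, which had 2 rows at 0.18 and -0.81, and the Card9 partner Bcl10, at 0.29, were not called. Several of these genes are expressed by lymphocytes as well.

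Partners of the integrin, osteopontin and galectin members were mixed. Of 16 tested genes 7 were called up (43.8%) and 0 down. Itgb2, the beta chain that pairs with Itgax, rose from 12.8 ± 2.24 to 60.5 ± 7.18 CPM (log2FC 2.25, adjusted p = 2.37e-09 by edgeR's quasi-likelihood test). Per length Itgb2 was 38.2 ± 5.15 times as abundant as Itgax in sham and 2.61 ± 0.255 times in BCP. Itgam, another alpha chain of the same beta chain, had a log2FC of 1.84, and the ratio of Itgam to Itgax in FPKM went from 33.4 ± 3.35 to 1.74 ± 0.0911. Both ratios rest on 7, 8 and 6 sham counts of Itgax, where counting noise alone gives a CV of 37.8%, so their sham SD understates the error. Since Itgax was chosen on this contrast, the fall of both ratios is a description. The Itgam row also spans Itgax, and how shared reads were counted is not stated. Itgal, the alpha chain of the leukocyte integrin LFA-1, rose by 3.87 on the log2 scale and Itga4, a receptor chain for osteopontin, by 2.28.

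Other receptors of osteopontin did not share one direction. Itgb3 and Cd44 were called up at log2FC of 1.16 and 1.07, whereas Itgav, the alpha chain that pairs with Itgb3, had -0.11 and was not called. Sdc4, a syndecan that binds Gpnmb, was not called at 0.09. Lgals3bp, which binds galectin-3, had a log2FC of 1.14 but an SE of 0.50 and an adjusted p of 0.195 by the same test, and Lgals1, the related galectin-1, had -0.32. Among the proteases that cystatin F inhibits or meets in lysosomes, Ctsc rose by 3.65 and Ctsh by 1.56 on the log2 scale, while Ctsl had 0.06.

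Lipid handling genes, the partners of Apoe and Lpl, were called about as often as all genes. Of 21 tested 1 was called up (4.76%, against 6.35% of all genes) and 0 down, and the median log2FC was 0.03. The count was 3 without BCP library 1. The gene called was Msr1, a scavenger receptor of macrophages, with 0.350 ± 0.437 CPM in sham and 10.2 ± 2.70 CPM in BCP (log2FC 4.91, SE 0.58, adjusted p = 0.000729 by edgeR's quasi-likelihood test). With 11, 3 and 0 counts in sham, Msr1 passed the filter only because of the BCP libraries, so its direction was fixed in advance. Plin2, which coats lipid droplets, and Soat1, which esterifies cholesterol, lay just under 2-fold with log2FC of 0.98 and 0.97 (adjusted p = 8.97e-09 and 2.23e-06 by the same test). Clu and Apod, the most abundant apolipoproteins of the list, had log2FC of 0.35 and -0.19. The Apoe receptor Lrp1 had -0.13, and Abca1, which loads lipid onto Apoe, had 0.13. The Lpl maturation factor Lmf1 and the inhibitor Angptl4 had 0.04 and 0.03, while the Lpl anchor Gpihbp1 and the cofactor Apoc2 were listed at 0 in every library.

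Among transcription factors linked to the state, 6 of 15 tested were called up (40.0%, against 6.35% of all tested genes) and 0 down. Tfec, a relative of MITF, had 2 counts over the sham libraries and 211 over the BCP libraries, a ratio of 114 (exact 95% interval 31.2 to 949), whereas Mitf itself, a regulator of Gpnmb, had a log2FC of 0.11 and an adjusted p of 0.372 by edgeR's quasi-likelihood test. Tfec passed the filter through the BCP libraries alone and had to be higher, and with at least 10 counts in every library 5 factors were called up. Irf8, Spi1 (which encodes PU.1) and Cebpb rose by 2.97, 2.42 and 1.90 on the log2 scale. Sall1 and Bhlhe41 were not called, at 0.43 and 0.08.

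**Figure D4:**
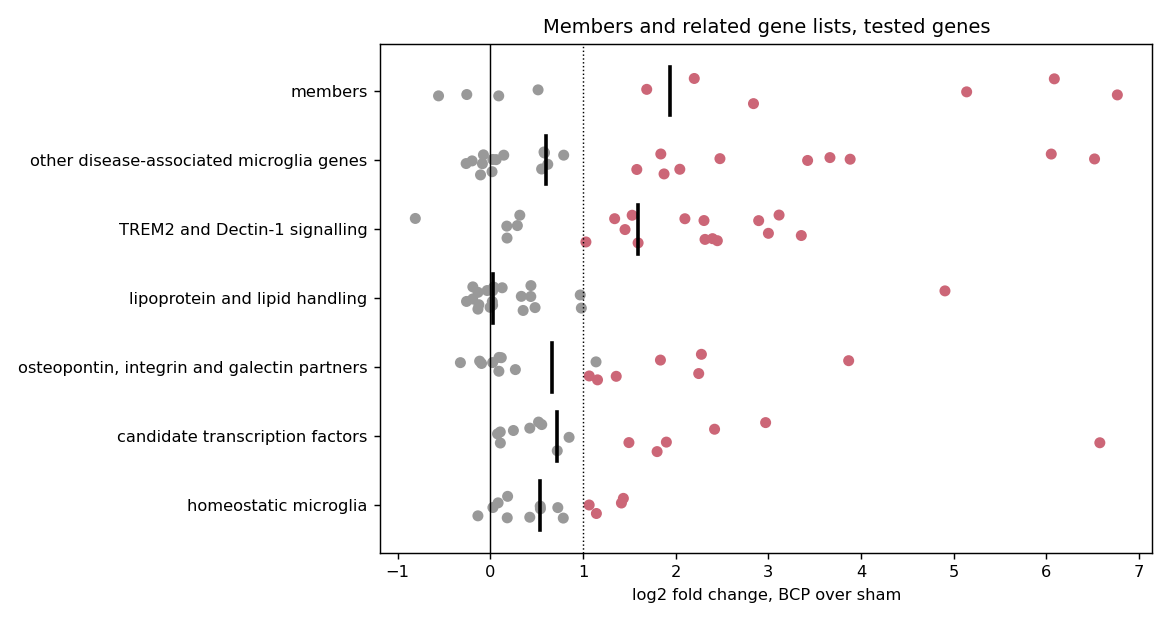
Log2FC of BCP over sham of each tested gene in the member list and in related lists, with members left out of the latter. Red points passed both thresholds (for the members a description, since they were chosen on this contrast), black bars are list medians and the dotted line marks 2-fold. The medians run from 0.03 for lipid handling to 1.59 for signaling and 1.95 for the members.

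Around the members, 21 neighboring genes with counts were examined, 20 nearest on either side and Itgam, which overlaps Itgax. Of 15 tested, 3 were called up, where 6.35% of all tested genes were. Itgam is 1 of the 3, and its row may share reads with Itgax, so the count is a description. Olr1, a receptor for oxidized lipoprotein, lies 12515 bases from Clec7a and rose from 3.02 to 34.7 CPM (log2FC 3.52, adjusted p = 1.49e-11 by edgeR's quasi-likelihood test), whereas Clec1a, 1485 bases away on the other side, was not called at 0.55. The others were Itgam and Dlgap5, a mitotic spindle gene next to Lgals3, at 1.15. Hcst, whose product DAP10 is an adaptor like DAP12, lies 125 bases from Tyrobp and had 2 counts over the sham libraries and 56 over the BCP libraries, too few to pass the filter. Tomm40 and Apoc1, on either side of Apoe, had -0.14 and -0.03.

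The lncRNA table held 9 transcripts within 10 kb of a member, near Itgax, Cst7, Tyrobp and Lgals3, of which 2 had enough counts to be tested. NONRATT000579.2 on chromosome 1 (88875447 to 88879305) had 4, 4 and 8 counts in sham and 51, 54 and 45 in BCP, a log2FC of 3.35 (SE 0.32, adjusted p = 0.00290 by edgeR's quasi-likelihood test over all lncRNAs, of which 1.14% were called up and 0.074% down). With fewer than 10 counts in each sham library, it passed the filter through the BCP libraries alone and had to be higher. It spans nearly all of Tyrobp, and without a statement on the use of strand in counting its reads and those of Tyrobp cannot be told apart. NONRATT010334.2, inside Lgals3, had a log2FC of 1.81 and an adjusted p of 0.0870 by the same test and was not called.

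The 5 other genes whose log2 CPM over the 6 libraries, centered on the sham mean, lay closest to the mean of the members were Rbm47, Ifi30, Cd84, Dock8 and Nfam1. Their root mean square difference was 0.0719 to 0.102, and their log2FC were 2.12 to 2.30. In the deposited annotation, 7 of the 10 members had a KEGG pathway, and 3 pathways held 2 members each. Trem2 and Tyrobp shared osteoclast differentiation, in which 36 of 104 other tested genes were called up (34.6%). Clec7a and Itgax shared tuberculosis, with 38 of 127 (29.9%), and Apoe and Lpl shared Alzheimer's disease, with 8 of 146 (5.48%). Over all tested genes 6.35% were called up, so the last share is near that of all genes. The pathways were found by the members they share, so these counts are descriptions. By GO terms, Apoe, Lpl, Gpnmb and Trem2 shared glycosaminoglycan binding, a term of 152 genes.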

How the data were processed

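RNA-seq of rRNA-depleted, strand-specific libraries was performed by the authors on 3 sham and 3 BCP samples, and each library was assigned from its label. Per the study's methods and the submitters' processing notes, reads were filtered with Seqtk, mapped to Rnor_6.0 with HISAT2 2.0.4 and quantified with StringTie 1.3.0. The authors deposited unnormalized counts and FPKM values of each gene and lncRNA transcript, and the counting program and its use of strand are not given in the sources used here.

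The count test was that of edgeR 4.0.16 under R 4.3.3 (filter by expression, TMM, robust quasi-likelihood fit on condition, Benjamini-Hochberg adjustment over the whole table). A gene was called at an adjusted p-value under 0.05 if its log2FC also exceeded 1 in size. Levels between genes were compared in FPKM, and promoters came from RefSeq. DESeq2 1.42.0, limma 3.58.1 (on log2(FPKM + 0.1)), other normalizations, filters and thresholds, a replicate block and each library left out were alternatives. Code was tested on simulated counts, and figures were drawn with matplotlib 3.10.9.

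The members and lists were chosen with earlier results of these data known. Named are all members, their direct partners (1 is not reported here), in each list up to 4 called genes per direction with the largest change and the 2 most abundant not called, nearest neighbors, tested lncRNAs within 10 kb and the 5 genes most alike. P2ry12, Tmem119, Siglech, Plin2, Soat1 and the cell type markers given by name were added after their values were seen. Exact intervals are Clopper-Pearson and cover counting error only.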

Additional observations from a re-analysis of the deposited data

How the results depend on the processing

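Few counts stood behind Cst7 and, in sham, Clec7a and Itgax. The calls of members under each setting are descriptions, since the members were chosen on this contrast. The alternatives gave 290 values, counts of calls and the members' median log2FC. Of these, 261 stayed within 1.5 times the reported count or within the spread of the median, and 29 did not. Many of the 261 were counts of 0 set against 0, or the count of members, which their choice largely fixes. The share is therefore no measure of stability. Medians of the other lists were not recomputed under the alternatives. With at least 10 counts in every library, 3 members were called up, the members' median log2FC was 0.52, 0 lipid handling genes were called up and 6 genes were called down. That filter removes Clec7a, Itgax and Cst7 by construction. Without a filter 37 genes were called down in place of 16, and with limma on log2(FPKM + 0.1) 9 were called down and 2 lipid handling genes up, and the log2FC of Clec7a was 5.91 and that of Itgax 5.20. With no fold threshold 2352 genes were called up and 1805 down, 2 members down, 16 other disease-associated genes up and 1 down, 5 lipid handling genes up and 4 down, 1 integrin or galectin partner down, 10 transcription factors up and 8 homeostatic genes up. A test against a fold change of 2 with edgeR called 548 genes up and 0 down (4 were lower at an unadjusted p under 0.05), 3 integrin and galectin partners up and 1 homeostatic gene up. With library size only, 3 lipid handling genes were called up. DESeq2 called 961 genes up and 11 down and 6 members up.

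Leaving out each library in turn gave 880 to 1015 genes called up and 16 to 33 called down (25 without sham library 2 and 33 without BCP library 1). The count of members was 6 each time, which the choice of members and the filter largely fix, with a median of 1.79 to 2.07. Lipid handling genes called up numbered 1 to 3, namely 2 without sham library 1, sham library 2 or BCP library 3 and 3 without BCP library 1, and lncRNAs near members 1 to 2, with 2 without sham library 1. The log2FC of Spp1 ranged from -0.13 to 0.22 and was reversed without BCP library 2 (-0.13). The log2FC of Cst7 ranged from 3.25 to 6.95 over all alternatives. The difference of Lgals3 relative to homeostatic genes, 1.09, was reversed to -0.435 against general microglia and macrophage markers, a reference chosen after seeing the data. The causes of these shifts were not tested beyond what the alternatives themselves fix.

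The labels give both groups the same replicate numbers. Deviations of same-numbered libraries from their group means correlated at -0.105, 0.0439 and -0.0353 over tested genes, so the numbers were not taken as pairs. With the replicate number as a block 907 genes were called up and 16 down, 6 members and 3 homeostatic genes were called up, and among counts of calls none moved by over 1.5 times.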
